A study of Mus musculus with 10 samples.

Results

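The expression of 10 genes that set or mark epithelial identity was followed across cultures of regenerating mouse olfactory epithelium. They are the grainyhead-like factors Grhl1, Grhl2 and Grhl3, the zinc-finger factor Ovol1, the ETS factors Elf3 and Ehf, the Krüppel-like factor Klf5, the splicing regulators Esrp1 and Esrp2, and the adhesion molecule Epcam. They were taken by name from 41091 gene identifiers, all 10 were found, and all 10 passed the filter on low counts that left 16669 genes. Each of them also reached the filter's 0.283 CPM (counts scaled to library size) in at least 3 of the 4 control libraries, so none entered the fit only through a group in which it was high.

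The cultures came from adult C57BL6 mice whose olfactory epithelium was collected 9 days after a methimazole lesion, a drug injury that strips the epithelium and starts its regrowth. The dissociated cells were grown attached to gelatin in NeuroCult proliferation medium with EGF, FGF2 and heparin, and received a lentivirus with a short hairpin RNA. The hairpin was a non-targeting scramble (shCTR, replicates 1, 2, 5 and 6) or was directed against Cbx7 (shCBX7, replicates 1, 2 and 5) or Cbx8 (shCBX8, replicates 1, 2 and 6), both genes coding for subunits of Polycomb repressive complex 1. The control replicates thus serve the comparisons of both hairpins. Total RNA of whole cultures was sequenced. The design text calls the replicates biological, but the animals or cultures behind each number are not given in the sources used here, and all p-values rest on the spread between these libraries.

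Epithelial cells are held together by junctions and line a surface, and a small circuit of regulators keeps them in that state. GRHL factors bind and activate genes of junctions and barriers, OVOL factors repress drivers of the mesenchymal state such as Zeb1, and the ETS factors ELF3 and EHF and the factor KLF5 act in glandular, mucosal and basal epithelia. ESRP1 and ESRP2 bind RNA and select the epithelial splice forms of transcripts such as Fgfr2, and EpCAM is a surface adhesion protein used as a general epithelial marker. In the olfactory epithelium, basal stem cells rebuild supporting cells, glands and neurons after injury.

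The stretch just before the gene start was examined for the members with an entry in the RefSeq promoter table (GRCm38.p6), since the 10 genes varied together across the libraries. Entries were found for 4 members, Grhl1, Grhl3, Elf3 and Epcam. The 250 bases before the start are printed 5′ to 3′ on the gene's strand, with capitals for the E-box CAGGTG or its reverse complement CACCTG, the letters that ZEB and SNAI repressors are known to bind.
Epcam, chr17:87635729-87635978, plus strand: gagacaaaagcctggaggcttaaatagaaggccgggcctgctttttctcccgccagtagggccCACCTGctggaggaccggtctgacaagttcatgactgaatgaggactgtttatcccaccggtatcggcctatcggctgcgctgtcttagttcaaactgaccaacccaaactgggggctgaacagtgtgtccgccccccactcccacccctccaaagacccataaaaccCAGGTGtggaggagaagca
Elf3, chr1:135258473-135258722, minus strand: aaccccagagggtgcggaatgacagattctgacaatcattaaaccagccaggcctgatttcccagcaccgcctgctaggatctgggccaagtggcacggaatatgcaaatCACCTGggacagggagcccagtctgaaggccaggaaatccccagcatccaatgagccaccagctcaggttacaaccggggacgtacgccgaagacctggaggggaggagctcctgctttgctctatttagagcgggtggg
Grhl3, chr4:135573633-135573882, minus strand: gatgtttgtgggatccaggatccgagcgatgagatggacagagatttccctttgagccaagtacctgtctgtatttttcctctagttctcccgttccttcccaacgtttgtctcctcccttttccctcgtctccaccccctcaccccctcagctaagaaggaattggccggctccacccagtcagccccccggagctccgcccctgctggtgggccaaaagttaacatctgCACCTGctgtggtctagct
Grhl1, chr12:24572037-24572286, plus strand: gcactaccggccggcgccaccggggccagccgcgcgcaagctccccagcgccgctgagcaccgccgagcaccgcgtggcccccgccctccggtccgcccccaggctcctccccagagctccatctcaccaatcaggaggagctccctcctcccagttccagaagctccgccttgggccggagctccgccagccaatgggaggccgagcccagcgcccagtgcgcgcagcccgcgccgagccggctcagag
Epcam held 2 such E-boxes, starting 187 and 19 bases before its start. Elf3 held 1 at 140 bases before a RefSeq start that lies 96 bases inside the GENCODE one. Grhl3 held 1 at 19 bases, while Grhl1 held none at this start or at a second start in the table. Of 32851 entries of 27025 genes, 17.2% held the E-box in the same 250 bases. The GRHL motif AACCGGTT, which is its own reverse complement, was in none of the 4 members and in 0.116% of all entries. A GC box, CCGCCC on either strand, was in Epcam, Grhl3 and Grhl1 (32.7% of all entries), and the ETS core GGAAG on either strand was in Grhl3 and at the second start of Grhl1 (64.1% of all entries). These matches describe letters and not bound sites.

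Libraries held 22763014 to 50463172 gene counts. Cbx8 was lower in shCBX8 than in shCTR (log2 fold change -1.31, SE 0.22, edgeR adjusted p = 0.00416), whereas Cbx7 in shCBX7 was at -0.67 (SE 0.48, adjusted p = 0.929), so the level of Cbx7 does not check that label. Basal cell markers were present (Krt5 8.37 to 336 CPM and Krt14 32.6 to 648 CPM over the 10 libraries), while Omp, the marker of mature olfactory neurons, stayed at or under 0.605 CPM and the supporting-cell gene Cyp2g1 at or under 1.94 CPM. Other genes of the neuronal list were detected, among them Adcy3 at 15.8 to 58 CPM and Gap43 at 2.47 to 81.7 CPM. Fibroblast markers were abundant, and their summed level over 10 genes was 5770 to 33200 CPM with the control hairpin, 5490 to 18500 CPM with shCBX7 and 205 to 3070 CPM with shCBX8. A measure of background, forward-strand counts over 1653 olfactory and vomeronasal receptor genes, was 110.9, 89.53, 68.76 and 32.92 CPM in shCTR 1, 2, 5 and 6, whereas the 6 other libraries held 11.02 to 27.42 CPM.

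Per length of transcript, Epcam was by far the most abundant of the 10 genes in each group. CPM divided by exon length in kilobases gave Epcam a mean of 29.3 in shCTR, 26.2 in shCBX7 and 145 in shCBX8, above 89.3%, 87.0% and 98.6% of 14760 protein-coding genes. Ehf came next in the controls at 2.63 per kb, followed by Elf3 at 2.05, Esrp2 at 1.48, Esrp1 at 1.39, Grhl3 at 1.37, Grhl2 at 1.02, Grhl1 at 0.681, Klf5 at 0.673 and Ovol1 at 0.275. The neighbours from Esrp2 to Grhl2 overlapped across the shCTR libraries (0.221 to 2.70 per kb), so their order there is not resolved. Elf3 also exceeded Ehf in shCTR 6 (3.68 against 2.06 per kb). In shCBX8 the order of means was Epcam, Esrp1 at 11.5, Ehf at 11.1, Grhl2 at 7.16, Elf3 at 7.06, Esrp2 at 6.36, Grhl3 at 4.85, Klf5 at 2.11, Grhl1 at 1.31 and Ovol1 at 0.840. In shCBX8 1 and shCBX8 2, Ehf lay above Esrp1 and Elf3 above Grhl2, so the order within these pairs is not resolved. Esrp1 went from above 28.7% of protein-coding genes in shCTR to above 72.4% in shCBX8, and Grhl2 from 25.1% to 60.5%, while Ovol1 was the lowest member in each group.

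Knockdown of Cbx8 went with higher levels of epithelial regulators. Against shCTR, 4 of the 10 genes rose in shCBX8 (Grhl2, Ehf, Esrp1 and Esrp2, by 4.21-fold to 8.24-fold), 6 did not pass the threshold of 0.05, and none fell. Over all genes tested, 17% passed in the upward direction in this comparison and 32.9% in either direction. All 4 rose by over 2-fold, as did 9.21% of all genes. The 3 shCBX8 libraries lay above all 4 shCTR libraries for 10 of the 10 genes, against 22.9% of all genes. The median log2 fold change of the 10 genes was 1.95 (range 0.94 to 3.04), beside -0.01 over all genes. The members were chosen with earlier results of these data known. Comparisons of their counts with all genes, here and below, are thus a description and not a test of the set.

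The GRHL factors were higher in the shCBX8 libraries than in every control library. Grhl2 (ENSMUSG00000022286, chromosome 15, 37233036 to 37363569, plus strand, GRCm38/mm10), which drives junction genes such as Cdh1, measured 8.28, 1.90, 10.4 and 14.5 CPM in shCTR 1, 2, 5 and 6. It measured 4.55, 0.594 and 18.2 CPM in shCBX7 1, 2 and 5 and 63.8, 34.8 and 86.4 CPM in shCBX8 1, 2 and 6. The lowest shCBX8 library thus lay 2.40 times above the highest control and 1.91 times above the highest shCBX7 library. Its mean was 61.7 ± 25.9 CPM (SD, n = 3) in shCBX8 and 8.77 ± 5.26 CPM (SD, n = 4) in shCTR. The log2 fold change was 2.81 (SE 0.93, 95% interval 0.72 to 4.90, edgeR quasi-likelihood test, Benjamini-Hochberg adjusted p = 0.0446), a 7-fold rise. In RNA from whole cultures, more cells of a type and more RNA per cell cannot be told apart, here and for the other 9 genes.

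Grhl3 (chromosome 4, 135541888 to 135573630, minus strand), the family member tied to barrier formation and wound closure, measured 3.44, 1.10, 5.62 and 5.10 CPM in the controls, 1.60, 0.802 and 8.92 CPM in shCBX7 and 14.7, 8.21 and 17.7 CPM in shCBX8. The shCBX8 and control libraries did not overlap, while shCBX7 5 lay above shCBX8 2, and the difference from control did not pass (1.82, SE 0.78, edgeR adjusted p = 0.0986). Grhl1 (chromosome 12, 24572283 to 24617391, plus strand), known for its part in desmosomal gene expression, measured 3.41, 1.80, 4.48 and 5.38 CPM in the controls, 1.28, 0.327 and 7.35 CPM in shCBX7 and 7.75, 6.85 and 7.20 CPM in shCBX8. It had the smallest difference of the 10 genes between shCBX8 and control, 0.94 (SE 0.79, 95% interval -0.82 to 2.71, edgeR adjusted p = 0.378), and the tightest shCBX8 libraries, which spanned 1.13-fold.

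Ovol1 (chromosome 19, 5549136 to 5560646, minus strand), a repressor that restrains progenitors and mesenchymal genes in skin, was the least abundant member. It measured 0.594, 0.250, 1.07 and 1.93 CPM in the controls, 0.4, 0.0297 and 1.55 CPM in shCBX7 and 3.27, 2.32 and 3.20 CPM in shCBX8. The value of 0.0297 CPM in shCBX7 2 is a single read, and 19 reads lay on the opposite strand there. With a log2 fold change of 1.58 (SE 0.88, edgeR adjusted p = 0.189) it did not pass, although its shCBX8 libraries lay above all 7 others.

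Of the 2 ETS factors, Ehf (chromosome 2, 103263433 to 103303278, minus strand), a factor of glandular and mucosal epithelia, rose in shCBX8. Ehf measured 19.6, 12, 15.7 and 11.5 CPM in the controls, 6.47, 2.35 and 24.2 CPM in shCBX7 and 76.6, 45.6 and 63.5 CPM in shCBX8. Its control libraries agreed to within 1.71-fold, the narrowest control range of the 10 genes, and its log2 fold change was 2.08 (SE 0.61, 95% interval 0.69 to 3.46, edgeR adjusted p = 0.0304). Elf3 (chromosome 1, 135253575 to 135258568, minus strand), its relative in simple epithelia, measured 4.63, 1.30, 4.09 and 8.15 CPM in the controls, 2.13, 0.624 and 6.94 CPM in shCBX7 and 17.4, 11.8 and 17.8 CPM in shCBX8. The shCBX8 libraries lay above all others, and the difference from control did not pass (1.78, SE 0.73, edgeR adjusted p = 0.0877).

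Klf5 (chromosome 14, 99298691 to 99315036, plus strand), a factor of proliferating basal and crypt epithelium, measured 2.57, 2.76, 2.46 and 6.22 CPM in the controls. In shCBX7 it measured 1.60, 0.505 and 5.66 CPM, and in shCBX8 11, 7.01 and 14.9 CPM. The lowest shCBX8 library lay only 1.13 times above shCTR 6, the narrowest such gap of the 10 genes. The log2 fold change was 1.64 (SE 0.68, edgeR adjusted p = 0.0904), which did not pass.

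Both splicing regulators rose in shCBX8. Esrp1 (ENSMUSG00000040728, chromosome 4, 11331933 to 11386783, minus strand) measured 5.78, 1.60, 10.6 and 17.0 CPM in the controls, 4.49, 1.63 and 17.8 CPM in shCBX7 and 79.8, 40.2 and 97.5 CPM in shCBX8. Its log2 fold change of 3.04 (SE 0.86, 95% interval 1.10 to 4.98, edgeR adjusted p = 0.0264), or 8.24-fold, was the largest of the 10 genes. Esrp2 (ENSMUSG00000084128, chromosome 8, 106130319 to 106136974, minus strand) measured 5.86, 2.35, 6.90 and 10.6 CPM in the controls, 3.05, 2.20 and 13.7 CPM in shCBX7 and 28.0, 17.9 and 36.9 CPM in shCBX8, a log2 fold change of 2.10 (SE 0.66, edgeR adjusted p = 0.0375). The shCBX8 libraries lay above all others for both genes. Esrp2 overlaps Nfatc3 on the opposite strand, where 61 to 154 reads a library were counted against 47 to 1715 on the strand of Esrp2. Subtracting the opposite strand moved Esrp2 to 2.94 and ended its call (edgeR adjusted p = 0.206). The opposite strand held more reads than Esrp2 in shCTR 2 (61 against 47) and shCBX7 2 (100 against 74). Subtraction set Esrp2 to 0 in both, so this setting does not measure its level there. Splice forms were not measured by these gene counts.

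Epcam (ENSMUSG00000045394, chromosome 17, 87635979 to 87651129, plus strand) measured 89.8, 13.3, 70.2 and 84.0 CPM in the controls. It measured 34.8, 7.57 and 130 CPM in shCBX7 and 380, 190 and 383 CPM in shCBX8. All 3 shCBX8 libraries lay above the rest, by at least 2.11 times over the controls. Its mean was 318 ± 111 CPM (SD, n = 3) against 64.3 ± 35 CPM (SD, n = 4). The log2 fold change of 2.30 (SE 0.85, 95% interval 0.39 to 4.22) missed the threshold (edgeR adjusted p = 0.0632), and the control libraries spanned 6.76-fold, with shCTR 2 lowest.

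**Figure D1:**
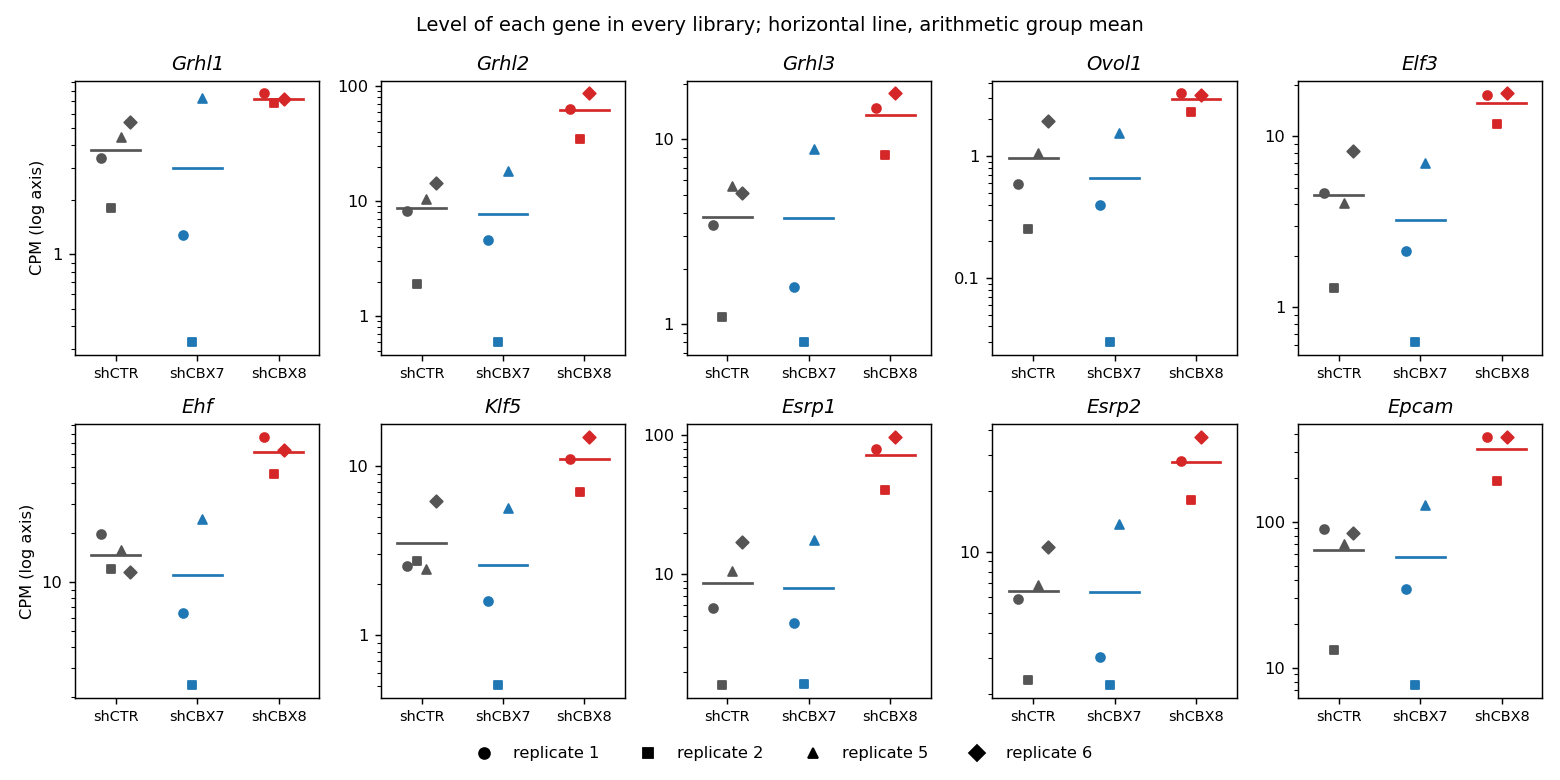
Level of each of the 10 genes in every library, in CPM on a log axis that differs between panels; each point is a library, its shape the replicate number, and each line the arithmetic mean of a group. The 3 shCBX8 libraries lie above all 4 shCTR libraries in every panel, and shCBX7 2 is the lowest library in 9 of 10 panels (Esrp1 being lowest in shCTR 2).

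The 4 calls depended on which libraries were kept. No member passed without shCTR 1, shCTR 5, shCBX8 1 or shCBX8 6, although 5, 6, 4 and 4 members were still at an unadjusted p under 0.05 by edgeR. Only Esrp1 passed without shCTR 2, Esrp1 and Esrp2 passed without shCTR 6, and 3 members passed without shCBX7 1, which enters through the shared spread. Conversely, 7 passed without shCBX7 2 and 8 without shCBX7 5, and the same 4 passed without shCBX8 2. DESeq2 on the same genes called 8 of the 10, leaving Grhl1 and Ovol1. With the background measure as a covariate, or without shCTR 1 and shCTR 2 together, 0 passed by edgeR (1 and 2 at an unadjusted p under 0.05). The background measure was higher in every shCTR library than in any shCBX7 or shCBX8 library. The covariate therefore cannot separate background from hairpin in comparisons with shCTR. The fitted difference was above 0 for all 10 genes under each of the 23 other settings.

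**Figure D2:**
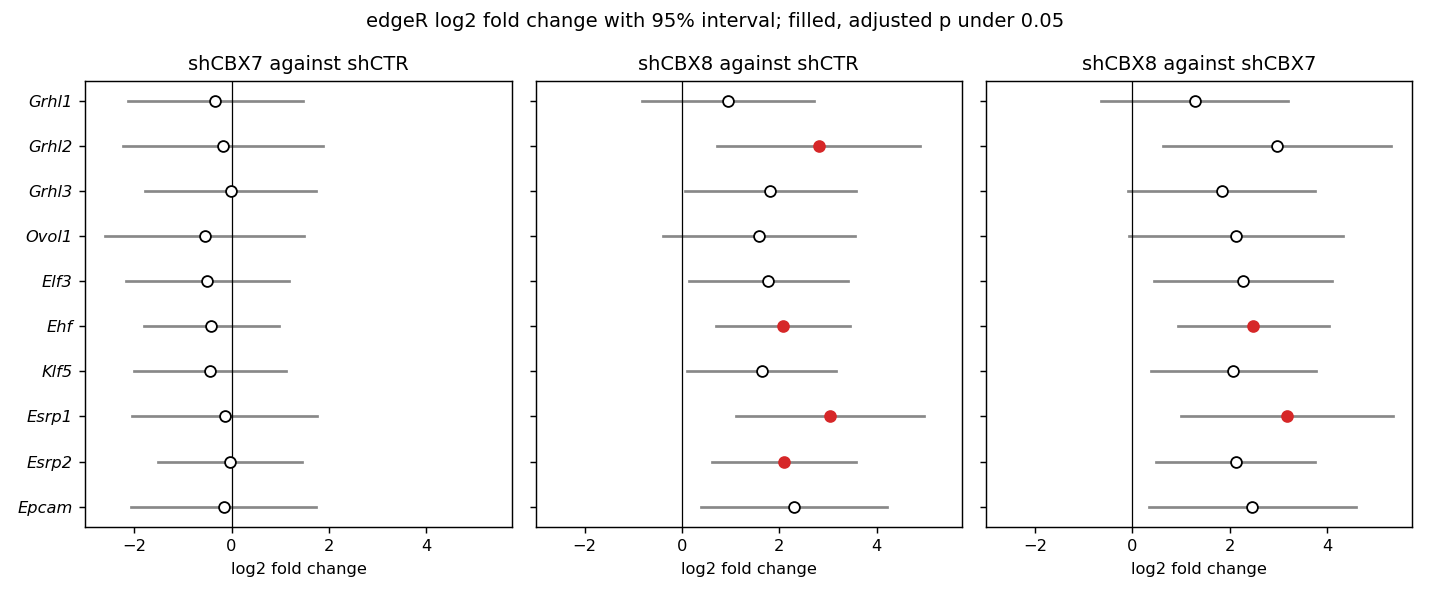
Log2 fold change of each gene with its 95% interval (edgeR) in each of the 3 comparisons; filled symbols passed an adjusted p of 0.05. Every value lies above 0 in both shCBX8 comparisons, from 0.94 to 3.04 against shCTR, and between -0.56 and -0.02 for shCBX7 against shCTR.

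The libraries with the hairpin against Cbx7 gave no call among the 10 genes. Their log2 fold changes in shCBX7 against shCTR lay between -0.56 (Ovol1) and -0.02 (Grhl3), with edgeR adjusted p from 0.955 to 0.999. At an unadjusted p under 0.05 the count was also 0, as it was with DESeq2. Of all 16669 genes, 0% passed in either direction by edgeR (975 at an unadjusted p under 0.05), while DESeq2 called 91. No member's shCBX7 libraries lay wholly above or wholly below the controls, which held for 1.7% and 3.73% of all genes. The intervals were wide: that of Grhl2 ran from -2.23 to 1.88 and that of Epcam from -2.06 to 1.73, while that of Ehf, from -1.80 to 0.97, leaves out a rise of over 2-fold.

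The 3 shCBX7 libraries stood far apart from each other. Over all 10 libraries, shCBX7 2 was lowest for 9 genes (Esrp1 was lowest in shCTR 2), and shCBX7 5 was the highest shCBX7 library for all 10. Between these libraries the members differed by 6.23-fold (Esrp2) to 52.0-fold (Ovol1, with its single read). Library shCBX7 5 exceeded all 4 controls for 7 genes and not for Ovol1, Elf3 and Klf5, while shCBX7 1 lay below shCTR 1, 5 and 6 for all 10. Summed over the 10 genes, levels were 60.4, 16.6 and 234 CPM in shCBX7 1, 2 and 5, against 144, 38.3, 131 and 164 CPM in the controls and 682, 364 and 728 CPM in shCBX8. Without shCBX7 5, log2 fold changes ran as low as -2.20 (Grhl1), with 6 members at an unadjusted p under 0.05 and 0 past the adjusted threshold, and without shCBX7 2 they ran up to 0.47 (Grhl3). The targeted gene Cbx7 also varied, at 3.64, 8.02 and 13.1 CPM in shCBX7 1, 2 and 5. In shCTR 1, 2, 5 and 6 it measured 17.7, 16.4, 13.5 and 5.3 CPM. Whether the level of Cbx7 had a part in the spread of the members was not tested.

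Set directly against shCBX7, the shCBX8 libraries were higher for Ehf and Esrp1, 2 of the 10 genes, where 15.3% of all genes passed upward and 28.6% in either direction. Both exceeded 2-fold, as did 10.6% of all genes. Ehf differed by 2.49 on the log2 scale (SE 0.69, edgeR adjusted p = 0.0266) and Esrp1 by 3.19 (SE 0.97, adjusted p = 0.0368). The other 8 ranged from 1.28 (Grhl1, adjusted p = 0.28) to 2.98 (Grhl2, adjusted p = 0.0579) and did not pass. The groups did not overlap for 8 genes (25.6% of all genes), with Grhl1 and Grhl3 the exceptions. Without shCBX7 5 all 10 passed and without shCTR 2 there were 5, whereas 0 passed without shCBX7 1, shCBX8 1 or shCBX8 6 (2, 6 and 5 at an unadjusted p under 0.05), and DESeq2 called 7. Only Ehf passed without shCTR 1, shCTR 5 or shCBX7 2, and 3 members passed without shCBX8 2. Because this comparison and the one with shCTR share the shCBX8 libraries, they are not independent.

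Marker sums of some other cells moved with these genes. Fibroblast markers, summed over 10 collagen, matrix and receptor genes of which none was at 0 in any library, measured 11700, 33200, 7280 and 5770 CPM in shCTR, 5490, 18500 and 6860 CPM in shCBX7 and 302, 3070 and 205 CPM in shCBX8. Among them, Postn and Col1a1 were called lower in shCBX8 against shCTR (edgeR adjusted p = 0.00754 and 0.0469). Col1a2, Col3a1, Dcn, Lum, Pdgfra, Pdgfrb and Thy1 were lower without passing (edgeR adjusted p = 0.0511 to 0.739). For Dcn, Pdgfrb and Thy1 the shCBX8 and control libraries overlapped. Replicate 2 was the highest library of its group for fibroblast markers in all 3 groups, and it had the lowest member sum in all 3. Horizontal basal cell markers, summed over 5 genes, ran from 313 to 1050 CPM in shCTR, 266 to 843 CPM in shCBX7 and 1030 to 1180 CPM in shCBX8. Of these, only Trp63 passed in shCBX8 against shCTR. Krt5, Krt14 and Itgb4 were higher without passing (edgeR adjusted p = 0.369, 0.152 and 0.262). Icam1 went the other way, at -0.82 on the log2 scale (edgeR adjusted p = 0.151). Bowman gland markers, also 5 genes, ran from 36.8 to 165, 29.9 to 179 and 237 to 668 CPM in shCTR, shCBX7 and shCBX8. Most of that sum in shCBX8 was Aqp5 (442, 186 and 595 CPM), whereas Sox9 and Galnt12 were at -0.48 and 0.07 on the log2 scale against shCTR and Muc5b was too low to test. Ciliated cell markers ran from 9.47 to 18.9, 6.71 to 16 and 26.3 to 70.2 CPM in the same order of groups. Only Dnah5 of them passed in shCBX8 against shCTR, Foxj1 and Tekt1 did not, and Cdhr3 was too low to test. Ccdc39 was at 0.33 on the log2 scale (edgeR adjusted p = 0.501). The part of these cell types in the differences was not tested. With replicate 2 of every group left out, a setting chosen after the data were seen, 8 members passed against shCTR and 6 against shCBX7.

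**Figure D3:**
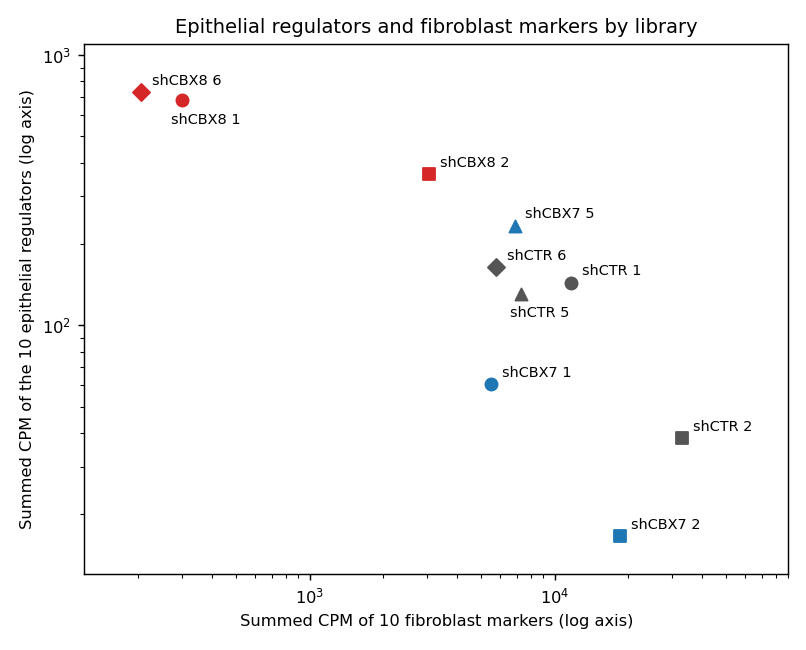
Summed CPM of the 10 genes against summed CPM of 10 fibroblast markers, both on log axes, with 1 point per library. The shCBX8 libraries sit at the upper left (364 to 728 CPM of members, 205 to 3070 CPM of fibroblast markers), and shCTR 2 and shCBX7 2 at the lower right (38.3 and 16.6 CPM of members).

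Within families, proportions differed between libraries, and no difference between groups passed adjustment. Per length, Grhl2 was at 0.679 to 1.73 times Grhl1 in shCTR, 1.17 to 2.28 times in shCBX7 and 3.27 to 7.72 times in shCBX8. Relative to Grhl3, Grhl2 was at 0.559 to 0.922, 0.240 to 0.920 and 1.37 to 1.58. Esrp1 was at 0.469 to 1.11 times Esrp2 in shCTR, 0.512 to 1.01 times in shCBX7 and 1.54 to 1.96 times in shCBX8, and Esrp1 was thus the more abundant paralog in all 3 shCBX8 libraries. Each of these 3 ratios was higher in every shCBX8 library than in any other. The log2 differences from shCTR were 1.99, 1.05 and 1.18, each with p = 0.0286 in an exact two-sided permutation test, the smallest that 4 against 3 libraries allow, and 0.143 after adjustment over 15 tests, so none passed. Against shCBX7 the smallest possible exact p is 0.1, which each reached. For Ehf to Elf3 the log2 difference between shCBX8 and shCTR was 0.05 (exact permutation p = 0.857), with control libraries spread from 0.559 to 3.65 and shCBX8 libraries from 1.42 to 1.75. These ratios were chosen after values had been seen.

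**Figure D4:**
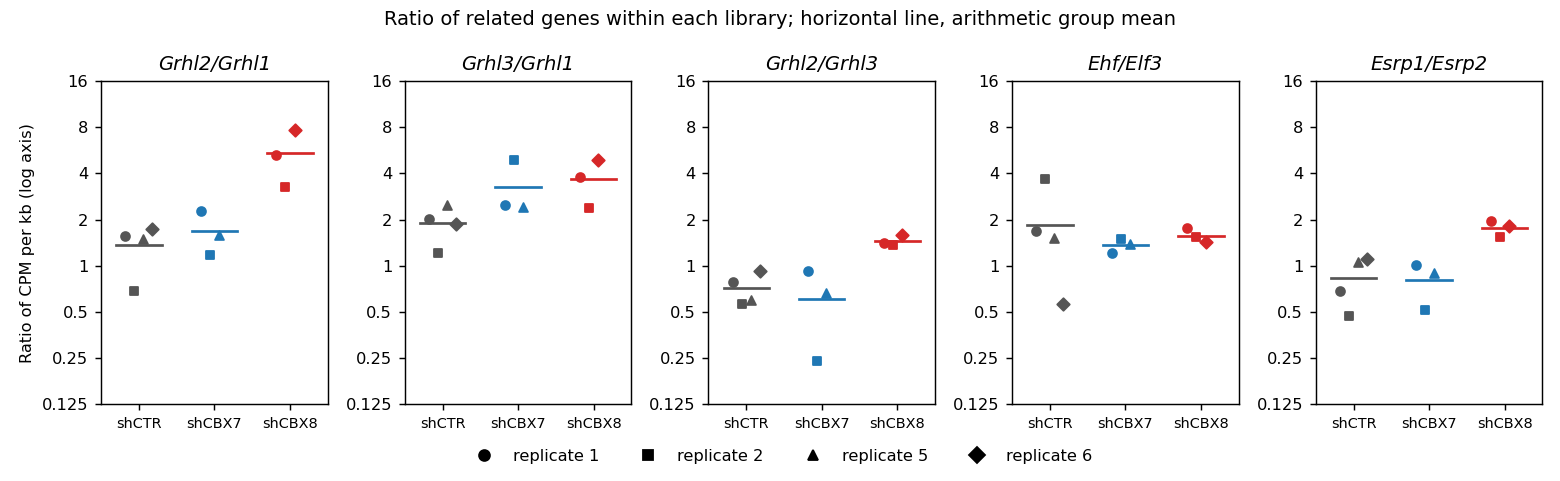
Ratios between family members per kb of exon, on a log axis, with 1 point per library. The shCBX8 libraries lie above the others for Grhl2 to Grhl1 (3.27 to 7.72), Grhl2 to Grhl3 (1.37 to 1.58) and Esrp1 to Esrp2 (1.54 to 1.96), and within the control range for Ehf to Elf3.

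Library shCTR 2 departed from the other controls in some proportions as well as its levels, most for Ehf and Klf5, picked out after their values were seen. Ehf measured 90.2% of the CPM of Epcam there, against 21.9%, 22.3% and 13.6% in shCTR 1, 5 and 6, 18.6% to 31.0% in shCBX7 and 16.6% to 24% in shCBX8. Klf5 measured 20.8% of Epcam in shCTR 2 and 2.87% to 7.41% in the other 9 libraries. Grhl2, Esrp1 and Ovol1, at 14.3%, 12.1% and 1.89% of Epcam in shCTR 2, lay within the range of the other controls. Grhl1 and Esrp2 lay above that range, at 13.6% and 17.7%. Grhl3 (8.3%, next control 8.01%) and Elf3 (9.81%, next control 9.71%) were barely above it. These are ratios of CPM of genes of different length and serve only to compare libraries.

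Other epithelial regulators were mixed. This list and those of adhesion genes and mesenchymal factors below were also chosen with earlier results of these data known. Their counts beside the share of all genes are thus a description. Of 12 listed, 10 were tested (Ovol3 and Spdef were not), and 4 rose in shCBX8 against shCTR (17% of all genes rose), with a list median of 1.90. The count was 2 without shCBX8 1 or shCTR 1 and 1 without shCBX8 6. Among those that rose were Rbm47, an RNA-binding protein (log2 fold change 2.15, edgeR adjusted p = 0.00988), Trp63, the basal cell factor p63 (1.82, adjusted p = 0.0116), and Ovol2, the paralog of Ovol1 (2.53, adjusted p = 0.0413). None passed in the downward direction, but 3 of the 10 had negative values, picked out after they were seen: Tfap2c at -2.10 (adjusted p = 0.0684), Tfap2a at -1.28 (adjusted p = 0.0603) and Klf4 at -0.61 (adjusted p = 0.234). Against shCBX7, 4 were higher, where 15.3% of all genes were (Trp63 2.46, Rbm47 2.41 and Foxa1 2.69 among them, median 2.43). That count was 2 without shCBX7 1, shCBX7 2, shCBX8 1 or shCBX8 6, 6 without shCTR 2 and 7 without shCBX7 5. For shCBX7 against shCTR the count was 0 (median -0.20).

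Many genes of adhesion, junctions and surface proteases were also higher in shCBX8. The list also held Rab25, Ap1m2, Fgfr2 and the keratins Krt7, Krt8, Krt18 and Krt19, of which Krt8 and Krt18 passed against shCTR. Of 23 listed and tested, 14 rose in shCBX8 against shCTR (17% of all genes rose) and none fell, with a median of 2.80, and 21 lay wholly above the controls (22.9% of all genes). Those with the smallest p were Marveld2, a protein of tricellular junctions (2.90, edgeR adjusted p = 0.0158), Cd24a, a surface glycoprotein (2.93, 0.0184 adjusted), Spint1, a serine protease inhibitor (2.90, 0.0192 adjusted), and Cdh3, P-cadherin (2.80, 0.0203 adjusted). Cdh1, E-cadherin, which was picked out after its values were seen, measured 43.1, 7.21, 59.2 and 124 CPM in the controls, and its shCBX8 values were 454, 207 and 456 CPM. It did not pass against shCTR (2.67, edgeR adjusted p = 0.0647) or against shCBX7 (2.86, edgeR adjusted p = 0.0798). Fgfr2 was the only gene of the list with a negative value against shCTR (-0.467, edgeR adjusted p = 0.456). Against shCBX7, 9 were higher, where 15.3% of all genes were (Cdh3 3.71, Marveld2 3.10, Cd24a 3.09 and Prss8 3.02 among them). That count was 1 without shCBX7 1, shCBX8 1 or shCBX8 6, 2 without shCBX7 2, 16 without shCTR 2 and 19 without shCBX7 5. For shCBX7 against shCTR it was 0 (median -0.18). The count against shCTR was 0 without shCBX8 1 or shCBX8 6, 2 without shCTR 1, 7 without shCTR 2, 4 without shCTR 5 and 8 without shCBX7 1, and fibroblast marker levels moved with these genes too.

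Most mesenchymal factors ran the other way. Of 13 tested, 6 fell in shCBX8 against shCTR (15.9% of all genes fell) and none rose, with a median of -1.10, and 10 lay wholly below the controls (19.5% of all genes). The other 7, Twist1, Twist2, Prrx1, Qk, Vim, Fn1 and Cdh2, did not pass. Cdh2 alone was above 0, at 0.315 against shCTR (edgeR adjusted p = 0.309) and 0.214 against shCBX7 (edgeR adjusted p = 0.535). Rbfox2 and Mbnl1, splicing factors of mesenchymal and muscle cells, fell by 1.41 and 0.87 on the log2 scale (edgeR adjusted p = 0.00323 and 0.00382). Snai2 and Zeb2, repressors of epithelial genes, fell by 1.98 and 1.10 (adjusted p = 0.00996 and 0.0173). Against shCBX7, 7 were lower, where 13.3% of all genes fell and 22.6% lay wholly below (Rbfox2 -1.30, Mbnl1 -0.71, Snai2 -1.89 and Zeb1 -1.28 among them). That count was 1 without shCBX8 6, 2 without shCBX8 1 and 3 without shCBX7 1, and shCBX7 against shCTR gave 0 (median 0.03). The count against shCTR was 3 without shCBX8 1 or shCBX8 6, 4 without shCTR 1 and 10 without shCBX8 2. The fibroblast marker sums given above, 205 to 3070 CPM in shCBX8 and 5770 to 33200 CPM with the control hairpin, were lower alongside these genes, and their part in the result was not tested.

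**Figure D5:**
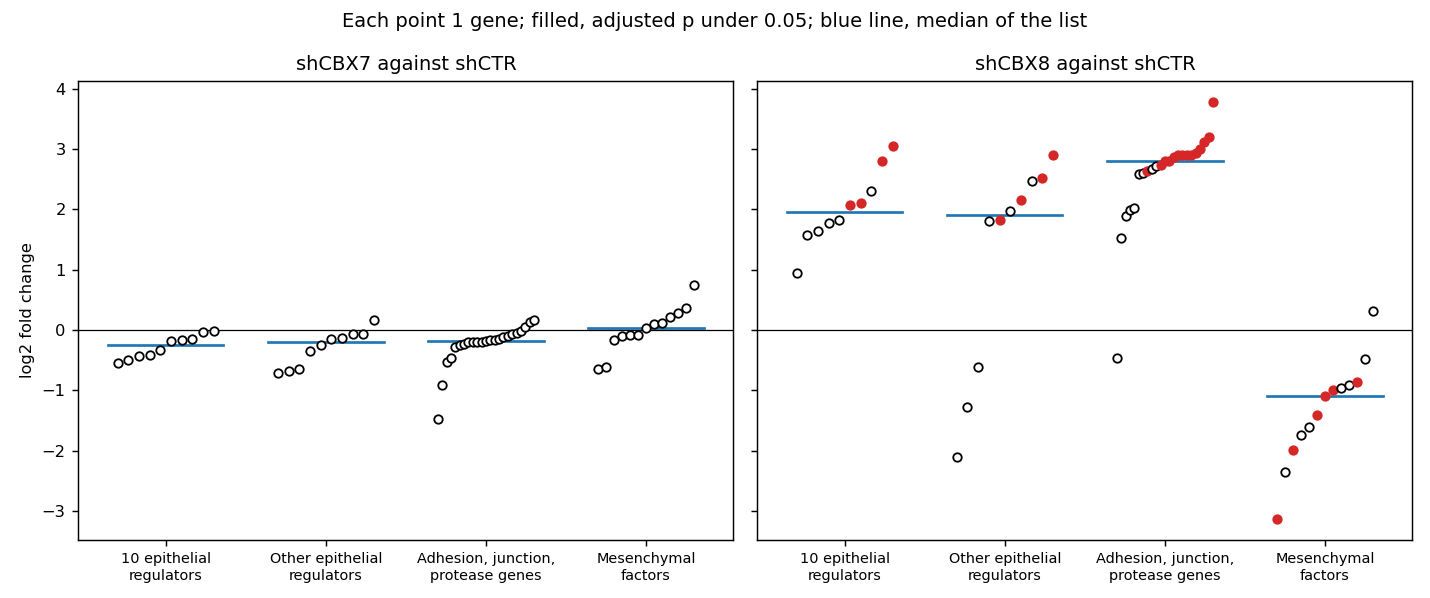
Log2 fold changes of every tested gene of the 10 members and of the 3 companion lists in shCBX7 and in shCBX8 against shCTR, with 1 point per gene, filled where it passed, and a blue line at each list's median. In shCBX8 against shCTR the medians are 1.95 for the members, 1.90 for other regulators, 2.80 for adhesion and junction genes and -1.10 for mesenchymal factors.

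The genes whose profile over the 10 libraries lay nearest to the mean profile of the members were sought among 10916 protein-coding genes. Likeness was the mean absolute difference of log2(CPM + 0.5) after centring each gene on its mean. Nearest was Bspry (0.13), followed by Psapl1 (0.14), Proser2 (0.17), Cnksr1 (0.19), the laminin chain gene Lama5 (0.19) and the receptor gene Erbb3 (0.19). The members themselves lay at 0.15 (Elf3) to 0.49 (Esrp1) from that profile, so Elf3 tracked it most closely and Esrp1 least. The 6 genes were chosen for this likeness, so their levels are a description. Lama5 measured 48.2, 26.8, 57.5 and 98.0 CPM in shCTR, 35.3, 25.4 and 115 CPM in shCBX7 and 234, 170 and 287 CPM in shCBX8, the same order of libraries within shCBX7 and shCBX8 as the member sum.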

How the data were processed

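Total RNA from 10 cultures was sequenced with a stranded kit from 500 ng of RNA, per the labels' protocols. The submitters' processing notes name bcl2fastq 2.17, Trim Galore 0.4.3, STAR 2.5.0a and the build mm10. Which annotation release was counted is not given in these sources. The deposited files hold raw counts per Ensembl gene in STAR's layout. Only the reverse-strand column was tested, since 3.415 to 10.41% of stranded gene counts lay on the forward strand. Of 41091 identifiers, 40217 matched GENCODE M21 of GRCm38, which gave symbols, positions and exon lengths. Left out were STAR's summary rows: unmapped reads (5.026 to 21.72% of reads), multimapping reads (15.39 to 22.09%), ambiguous reads (0.2899 to 0.6373%) and reads outside genes (12.49 to 23.63%). The shCTR libraries held 9.826 to 21.72% unmapped reads, and the shCBX7 and shCBX8 libraries 5.026 to 7.81%. Reads outside genes were 20.42 to 23.63% in shCTR and 12.49 to 18.62% in the others.

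Genes were filtered with filterByExpr (minimum count 10), scaled by TMM, and fitted over all 10 libraries with edgeR 4.0.16's quasi-likelihood test (R 4.3.3, group only, 7 residual degrees of freedom, common biological coefficient of variation 0.375). P-values were adjusted by Benjamini-Hochberg over 16669 genes, with a threshold of 0.05. DESeq2 1.42.0 was an alternative. CPM are relative to edgeR's scaled library size. The design text gives 3 replicates per treatment and the labels 4 for shCTR.

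Named genes were the 10 members, Cbx7 and Cbx8, up to 4 genes with the smallest p per list and comparison, and the 6 genes of a mean of at least 5 CPM with the likest profile. Some items that this rule takes are not reported here. The members and lists were chosen with earlier results of these data known. Same-group libraries differed by more than sampling noise (chi-square per degree of freedom 28.1 to 445), so each counted as 1 replicate.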

Additional observations from a re-analysis of the deposited data

Results flagged for a closer look

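Klf5 measured 6.22 CPM in shCTR 6, against 2.57, 2.76 and 2.46 CPM in the other controls. Its gap to the nearest control was 0.92 of the controls' whole range, above Dixon's 95% critical value for 4 libraries. Each of the 10 genes was checked this way in the controls, and chance picks out about 1 in 20 groups.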

How the results depend on the processing

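All 10 genes kept a positive difference in both shCBX8 comparisons under each of 23 other settings, while the calls moved. Of 230 gene values against shCTR, 170 kept their side of the threshold, 24 newly passed and 36 no longer passed; against shCBX7 these were 186, 30 and 14. Members called in shCBX8 against shCTR and against shCBX7 numbered 4 and 2, and became 8 and 7 with DESeq2, 2 and 1 with forward-strand counts subtracted, 8 and 1 with only the compared groups fitted, 0 and 1 with the background covariate, 0 and 0 at a threshold of 0.01, and 8 and 6 without replicate 2 of every group (chosen after seeing the data). Unstranded counts gave 4 against shCBX7, and omission of shCTR 1 and 2 together gave 0 against shCTR. Leaving out 1 library at a time gave 0 to 8 against shCTR and 0 to 10 against shCBX7. Genes called over the whole table against shCTR were 5478, and became 2409 without shCTR 1 and 2, 2311 with the covariate, 1844 at 0.01, and 2261 to 6193 with 1 library left out. Against shCBX7 they were 4762, 1350 at 0.01 and 1784 to 6005 with 1 library left out. For shCBX7 against shCTR they were 0, 91 with DESeq2 and 0 to 41 with 1 library left out. The causes were not tested.

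What a replicate number marks is not stated, and the numbers were not taken to pair the libraries: same-numbered deviations from group means correlated from -0.078 to 0.691, and pairs shCTR 1 with shCBX7 1 and shCTR 6 with shCBX8 6 (0.075) were under 0.1, unlike the other 6 pairs. Libraries shCTR 1, shCBX7 1, shCBX8 1 and shCBX8 6 did not correlate best in every comparison with their own number. With the replicate number as a block, 9 members passed in each shCBX8 comparison (Grhl1 did not).

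In shCBX7 against shCTR, where no member passed, 32 of 230 values changed sign. Grhl3 and Esrp2 became 0.03 and 0.02 with library size only, 0.03 and 0.02 without the filter, and 0.06 and 0.12 with forward-strand counts subtracted. Ehf became 0.70 with the covariate. Without replicate 2 of every group, Grhl2, Grhl3, Esrp2 and Epcam became 0.03, 0.15, 0.10 and 0.02. With 1 library left out, log2 fold changes ran from -2.20 to 0.20 for Grhl1, -1.75 to 0.38 for Grhl2, -1.65 to 0.47 for Grhl3, -2.09 to 0.04 for Ovol1, -1.72 to 0.08 for Ehf, -1.71 to 0.06 for Klf5, -1.50 to 0.40 for Esrp1, -1.28 to 0.39 for Esrp2 and -1.59 to 0.38 for Epcam. Depth limits Ovol1 most, with 1 to 156 reads a library.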
